A study of Mus musculus with 96 samples.

Results

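The 10 genes described here code for proteins of the contractile machinery and cytoskeleton of smooth muscle, and they are Acta2, Actg2, Myh11, Tagln, Cnn1, Des, Smtn, Mylk, Lmod1, and Synpo2. They were taken by symbol from the deposited count table, which lists 41575 gene symbols, and all 10 were found. Levels are given as CPM, the counts of a gene per 1000000 counts of its library. Bulk RNA was profiled by MuSeq, a method that gives each sample its own barcode so that many can be sequenced as 1 pool, in 96 libraries from mice aged 3 weeks. The 16 tissues were the hollow organs bladder, stomach, intestine, and rectum, tissue labelled vascular, the striated muscles (muscle and heart), the skeletal tissues bone and cartilage, the brain regions cortex and hippocampus, and lung, kidney, spleen, liver, and adipose, each with 3 wild-type and 3 Scx-/- libraries. Scx-/- mice lack Scx, a transcription factor of tendon and ligament progenitors. No source used here gives the design of the knockout allele, the strain, the sex, or which libraries share a mouse. Nothing in the labels says that the 3 libraries of a group came from separate animals, so that no p-value given here can be taken to measure the spread between animals.

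Smooth muscle lines hollow organs and vessels and contracts when myosin light chain kinase, switched on by calcium, phosphorylates the light chain of smooth muscle myosin, which then pulls on actin filaments anchored in dense bodies. The contractile genes are known to be switched on together by serum response factor and its partner myocardin, which act through a promoter element named the CArG box. Visceral smooth muscle of the gut and bladder is known for gamma-enteric actin (Actg2), and vascular smooth muscle for alpha-smooth muscle actin (Acta2).

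Library totals ran from 11244 to 1658192 counts (median 251640), and 16 libraries held fewer than 100000. Scx itself gave 80 counts in 12 of 48 wild-type libraries and 9 counts in 1 of 48 Scx-/- libraries. The latter was the library labelled cartilage Scx-/- replicate 1. The design of the allele is not known here, and whether these counts go against that label was not tested. The labelled organs were checked against marker genes of their own lining or cells, summed per library. Urothelial markers summed to 4987 to 9749 CPM in bladder, gastric mucosa markers to 121385 to 196115 CPM in stomach, gut epithelium markers to 8007 to 11293 CPM in intestine, and endothelial markers to 145 to 490 CPM in vascular libraries. The endothelial list does not set the vascular libraries apart, since it summed to 267 to 598 CPM in heart and 706 to 2135 CPM in lung. The vascular libraries also held 3499 to 13148 CPM of brown fat markers. The study itself left the vascular samples out of its later comparisons, as mixed with other tissue. The library rectum Scx-/- replicate 1 stood apart from the other rectum libraries, with 2007 CPM of gut epithelium markers against 9351 to 16377 CPM in the other 5. Intestine wild-type replicate 1 and adipose Scx-/- replicate 1 were also doubted, for no reason other than that an earlier analysis of these data had set them apart. The main values of rectum and intestine are also given without the doubted libraries. The adipose libraries held 249817 to 317299 CPM of pancreatic acinar markers, so that RNA of another tissue makes up part of their counts.

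The sequence of one promoter is shown because the contractile genes varied together across tissues and the CArG box is the element known for them. RefSeq's promoter table for GRCm38.p6 (250 bases before to 50 after a gene's start) held 7 of the 10 genes, namely Des, Lmod1, Synpo2, Cnn1, Smtn, Mylk, and Acta2. A strict CArG box (6 bases of A or T between a pair of C and a pair of G, a motif that reads the same way on both strands) was found in 0 of these 7 and in 1.63% of the 32851 promoters of the table. A looser form that allows 1 G or C among the 6 middle bases was found in 1 of the 7, Acta2, against 9.98% of all promoters, and this form was searched after the strict form gave no match. In Acta2 it occurred at 2 places, starting 84 and 34 bases before the start used by that table, and these are in capitals in the sequence of chr19:34255324-34255623 (GRCm38.p6, minus strand).
Acta2 promoter: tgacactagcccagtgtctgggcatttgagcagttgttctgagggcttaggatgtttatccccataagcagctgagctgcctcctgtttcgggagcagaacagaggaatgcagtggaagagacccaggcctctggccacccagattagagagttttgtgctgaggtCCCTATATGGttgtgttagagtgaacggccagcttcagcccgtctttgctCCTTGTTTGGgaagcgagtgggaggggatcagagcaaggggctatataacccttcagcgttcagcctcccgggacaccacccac
The start used by the table lies 217 bases inside the annotated span of Acta2, and likewise 1320 bases inside Smtn and 39740 bases inside Mylk, so that these windows are not the bases before the outermost start. A match is only a description of these letters, and no match says nothing about binding outside the window.

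All 10 contractile genes were at their highest mean level in bladder on library totals. With TMM factors over the 96 libraries the same held for 9, and Des was then highest in muscle (1519.7 CPM against 1151.7 in bladder). Together they made up 4.52% ± 1.21 of the counts in bladder (SD, n = 6 libraries of both genotypes) and 1.82% ± 0.862 in rectum, then 0.846% ± 0.336 in vascular, 0.785% ± 0.207 in stomach, and 0.386% ± 0.109 in intestine libraries. Without the doubted library the share was 2.14% ± 0.365 in rectum and 0.390% ± 0.121 in intestine (n = 5 each). The share was lowest in cortex, at 0.00616% ± 0.00121. With TMM factors over the 96 libraries the share in intestine was 0.257%. In bulk RNA, fewer smooth muscle cells and less RNA per cell cannot be told apart. All 10 genes were detected in 30 of the 96 libraries, Acta2 in 94, Actg2 in 90, Myh11 in 86, Tagln in 93, Cnn1 in 76, Mylk in 93, Smtn in 83, Des in 83, Lmod1 in 54, and Synpo2 in 47.

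**Figure D1:**
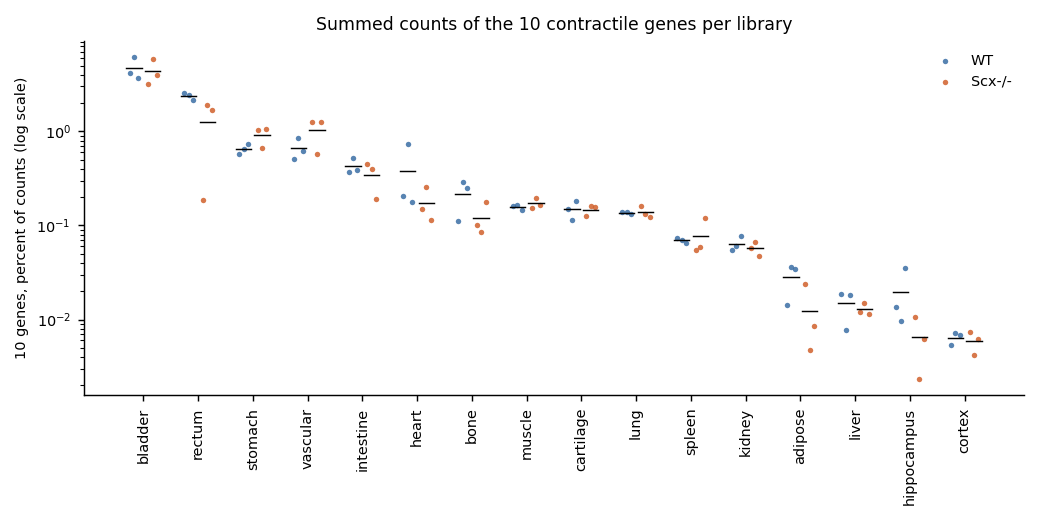
Each point is 1 library and gives the summed counts of the 10 contractile genes as a percent of the library's counts (vertical log axis) by tissue, for wild-type (WT) and Scx-/- libraries, with the group mean as a bar. The bladder libraries lie between 3.21% and 6.20%, and 1 rectum Scx-/- library lies at 0.188%, below the other 5 at 1.67% to 2.57%.

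Among the actins, Acta2 (chr19:34241090-34255590, GRCm38, minus strand) codes for alpha-smooth muscle actin. In bladder it reached 11627, 15468, and 10599 CPM in the 3 wild-type libraries and 8914, 14864, and 10020.2 CPM in the 3 Scx-/- libraries. Replicate 2 was the highest of each genotype, and the 2 genotypes overlapped. Over both genotypes (n = 6 libraries a tissue, mean ± SD), its level was 11916 ± 2673 CPM in bladder, 4710.0 ± 2182 in rectum, 4446 ± 1740.2 in vascular, 2324 ± 583 in stomach, 1032 ± 859.6 in heart, and 902 ± 282 in intestine. It was between 161 and 405 CPM in muscle, lung, spleen, cartilage, bone, and kidney, and between 15.7 and 44.5 CPM in adipose, liver, cortex, and hippocampus. Bladder exceeded rectum in every library (exact permutation test of mean log2(CPM + 1), two-sided, p = 0.00216, the smallest that 6 against 6 can give, and adjusted p = 0.0162 over the 15 neighbouring pairs of this gene). Of the other neighbours in the order, vascular was above stomach (adjusted p = 0.0455), stomach above heart (adjusted p = 0.0406), intestine above muscle (adjusted p = 0.0406), and kidney above adipose (adjusted p = 0.0162) by the same exact permutation test. The remaining 10 pairs, rectum and vascular among them (adjusted p = 0.969), did not differ beyond their spread. Here and for the genes below, the neighbours and their direction come from the order of mean CPM in these same values. The test used mean log2(CPM + 1), in which the order can differ. Without rectum Scx-/- replicate 1, Acta2 in rectum was 5568 ± 653 CPM (n = 5), and the same 5 pairs passed without the 3 doubted libraries. The mean in heart was 704 ± 347 CPM without wild-type replicate 2, a library of 11244 counts whose Acta2 level was 2668 CPM from 30 counts, and this value, chosen after the data were seen, lies below intestine.

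Actg2 (chr6:83512905-83536265, minus strand) codes for gamma-enteric actin. In bladder its level was 6424, 16002, and 6138 CPM in wild-type and 4489, 14078, and 5728 CPM in Scx-/- libraries, so that replicate 2 of each genotype stood far above the other 4 libraries. In rectum it was 5444, 5472, and 5767 CPM in wild-type and 12.7, 3454, and 3375 CPM in Scx-/- libraries. The order was bladder (8809.7 ± 4909 CPM), rectum (3921 ± 2188), stomach (1909 ± 508), intestine (628 ± 214), heart (362 ± 783), and vascular (333 ± 215), with 143 ± 127 CPM in bone and 32.5 CPM or less in the other 9 tissues. Only stomach and intestine differed among neighbours, without overlap (exact permutation test, adjusted p = 0.0325 over 15 pairs), and bladder and rectum did not differ beyond their spread (adjusted p = 0.146). Its rectum level was 4703 ± 1183 CPM without Scx-/- replicate 1 (n = 5), and rectum then lay above stomach (exact permutation test, adjusted p = 0.0162). The mean in heart rests on wild-type replicate 2, in which the Actg2 level was 1957 CPM, from 22 counts, against 4.57 to 138 CPM in the other 5 heart libraries (43.0 ± 54.7 CPM, n = 5, below vascular and bone). That library also held 8 counts (711 CPM) of urothelial markers, with 4 of the 5 genes detected, against 7.10 to 25.0 CPM in the other 5 heart libraries. Whether the one bears on the other was not tested.

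The counts of the 2 actins can be set against each other between tissues, without a correction for length and with no test, since the ratio within a tissue depends on where the reads of each gene fall. Per the study's description, MuSeq reads are enriched at the 3′ ends of polyadenylated RNA. The coding sequences of the 2 genes are near-identical, the share of reads that fell in them was not measured here, and no source used here says how reads that match both were assigned. Actg2 made up 42.8% of the pooled Acta2 and Actg2 counts in bladder (95% exact binomial interval 42.4 to 43.2, counting error only), 46.0% in stomach, 44.3% in rectum, and 39.4% in intestine. It made up 5.65% in vascular, 8.52% in lung, 6.53% in heart, 3.74% in muscle, and 2.40% in cartilage. In heart the share by library ran from 1.12% to 42.3%, the latter in wild-type replicate 2, with 22 Actg2 counts. In cartilage, 7 of the 11 Actg2 counts came from wild-type replicate 3. By library the share ran from 33.3% to 50.8% in bladder, stomach, and intestine, and from 3.71% to 23.7% in vascular, with no overlap. Rectum Scx-/- replicate 1 gave 2.94% from 34 counts, against 40.2% to 49.3% in the other 5 rectum libraries. In bladder, replicate 2 of both genotypes gave 50.8% and 48.6%, above the 33.5% to 36.7% of the other 4 libraries. In bone the pooled share was 30.5% of 213 counts (95% exact interval 24.4 to 37.2), and by library it ran from 6.25% to 56.4%. The share was also high in 3 tissues with few counts of either gene, at 58.5% of 41 counts in hippocampus (95% exact interval 42.1 to 73.7), 38.1% of 105 in adipose (28.8 to 48.1), and 31.5% of 92 in liver (22.2 to 42.0). In hippocampus, 19 of the 24 Actg2 counts came from 1 wild-type library. In liver, 19 of the 29 came from Scx-/- replicate 1, and in adipose 21 of the 40 from Scx-/- replicate 1.

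**Figure D2:**
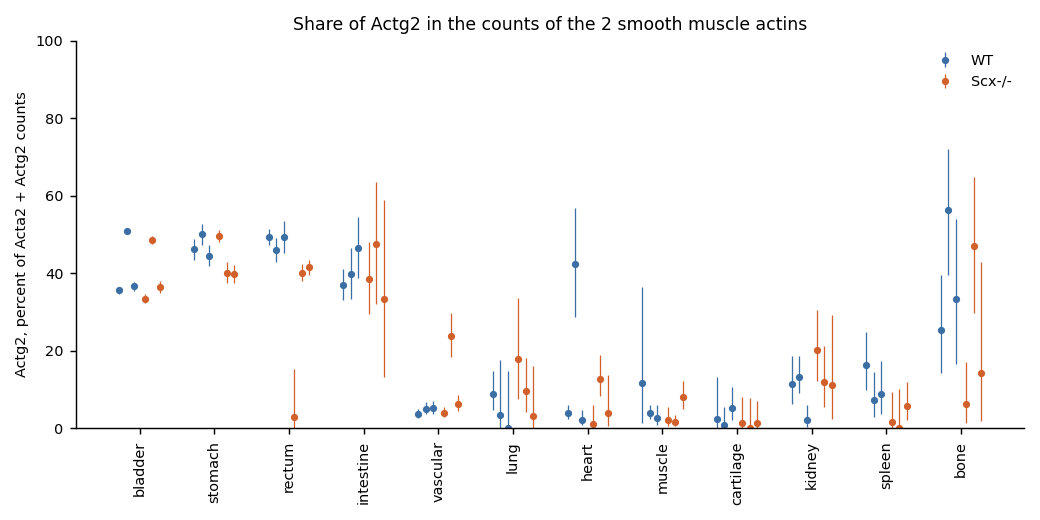
Each point is 1 library and gives Actg2 counts as a percent of the summed Acta2 and Actg2 counts, with the 95% exact binomial interval, in 12 tissues. Bladder, stomach, and intestine libraries lie between 33.3% and 50.8%, while vascular libraries lie between 3.71% and 23.7% and 1 rectum library lies at 2.94%.

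Myh11 (chr16:14194535-14291372, minus strand) codes for the smooth muscle myosin heavy chain, the motor protein of the thick filament. In bladder it was 6154, 6749.8, and 5061 CPM in wild-type and 4879, 7946, and 5699 CPM in Scx-/- libraries, with the genotypes overlapping. The tissues followed in the order bladder (6081 ± 1146 CPM), rectum (2230.4 ± 1079), vascular (1012 ± 442), stomach (977 ± 445), intestine (619 ± 281), bone (208 ± 125), heart (154 ± 189), and lung (103 ± 56.0), with 49.1 CPM or less in the other 8. Bladder lay above rectum without overlap (exact permutation test, adjusted p = 0.0325 over 15 pairs), and no other neighbouring pair of this gene passed. Without rectum Scx-/- replicate 1, Myh11 was at 2600.2 ± 656 CPM in rectum (n = 5) and rectum also lay above vascular (exact permutation test, adjusted p = 0.0325). The place of heart rests on wild-type replicate 2 (534 CPM from 6 counts), without which its mean was 77.6 ± 38.7 CPM, below lung. Mylk (chr16:34745210-35002420, plus strand), the kinase that phosphorylates the myosin light chain, was at 4618 ± 601 CPM in bladder and 1431 ± 711 in rectum, which did not overlap (exact permutation test, adjusted p = 0.0325). The next tissues for Mylk were intestine (824 ± 373 CPM), stomach (502 ± 154), and lung (289.7 ± 149), ahead of vascular (175 ± 116). Without rectum Scx-/- replicate 1 and intestine wild-type replicate 1, Mylk was at 1656 ± 501 CPM in rectum and 822 ± 417 in intestine, and the 2 tissues differed (exact permutation test, adjusted p = 0.0397). Mylk had counts in all 6 liver libraries, at 67.9 ± 24.0 CPM, and muscle lay above cortex among its lower neighbours (exact permutation test, adjusted p = 0.0487).

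Tagln (chr9:45929619-45936058, minus strand) and Cnn1 (chr9:22099216-22109630, plus strand) code for transgelin and calponin, which bind actin filaments. Tagln in bladder was 6939.5, 8941, and 5589 CPM in wild-type and 5664, 8517, and 8321 CPM in Scx-/- libraries, all above the highest rectum library at 4350.1 CPM (exact permutation test, adjusted p = 0.0162 over 15 pairs). Its order went on with rectum (3013 ± 1344 CPM), vascular (1506 ± 690.0), stomach (1038 ± 295), intestine (392 ± 234), and lung (331 ± 86.7), and stomach lay above intestine without overlap (exact permutation test, adjusted p = 0.0162). Cnn1 fell from 3625 ± 1128 CPM in bladder to 1554 ± 921 in rectum, 654 ± 265 in stomach, 546 ± 360.2 in vascular, and 146 ± 116 in intestine. Bladder and rectum overlapped in Cnn1 but differed (exact permutation test, adjusted p = 0.0487), as did vascular and intestine (adjusted p = 0.0487). Without the doubted libraries, Tagln was at 3529.7 ± 509 CPM and Cnn1 at 1865 ± 579.7 CPM in rectum (n = 5). Rectum then also lay above vascular in Tagln (adjusted p = 0.0325) and above stomach in Cnn1 (adjusted p = 0.0325) by the exact permutation test.

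Smtn (chr11:3517523-3540612, minus strand) codes for smoothelin, a cytoskeletal protein of contractile smooth muscle, Lmod1 (chr1:135324807-135368065, plus strand) for leiomodin, which starts actin filaments, and Synpo2 (chr3:123076519-123236149, minus strand) for an actin-bundling protein. Smtn was at 797 ± 172 CPM in bladder, 453 ± 223 in rectum, 203 ± 243 in bone, and 174 ± 147 in vascular libraries. The place of bone rests on wild-type replicate 3, with 637 CPM from 30 counts, and without it the mean of Smtn in bone was 116 ± 131 CPM (n = 5, left out after the data were seen), below vascular. Lmod1 was at 319.7 ± 134 CPM in bladder, and its second tissue was vascular (148 ± 119.8), ahead of rectum (94.0 ± 71.1) and stomach (61.1 ± 40.6). Synpo2 was at 436 ± 145 CPM in bladder, 164 ± 105 in rectum, and 98.2 ± 46.5 in vascular libraries. No neighbouring pair passed for these 3 genes, with adjusted p of 0.146, 0.357, and 0.0649 for bladder against the next tissue by the exact permutation test. The rectum levels without Scx-/- replicate 1 were 498 ± 217 CPM for Smtn, 113 ± 60.6 for Lmod1, and 197 ± 76.2 for Synpo2 (n = 5), with the same neighbours above and below. In liver, Lmod1 and Synpo2 had 0 counts in all 6 libraries, which allows up to 3.90 to 12.2 CPM per library (3 counts each).

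Des (chr1:75360329-75368579, plus strand) codes for desmin, the intermediate filament of smooth, skeletal, and cardiac muscle, and it had another order. Its levels were 1249.7 ± 429 CPM in bladder, 886 ± 222 in cartilage, 878 ± 291 in muscle, 604 ± 55.1 in heart, 589.9 ± 331 in rectum, and 454 ± 222 in bone. In rectum the level was 688 ± 255 CPM without Scx-/- replicate 1 (n = 5), above heart. No neighbouring pair of Des passed the exact permutation test (bladder and cartilage, adjusted p = 0.341). In vascular libraries it was 39.5, 19.4, and 13.7 CPM in wild-type and 26.2, 0, and 0 CPM in Scx-/- libraries. Every vascular library was thus below every bladder library, in which the lowest was 739 CPM. The cartilage libraries held 102951 to 131910 CPM of skeletal muscle markers and the bone libraries 20248 to 82892 CPM, and the part of these in the Des levels of those tissues was not tested. In the heart libraries, cardiomyocyte markers summed to 31661 to 51119 CPM.

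**Figure D3:**
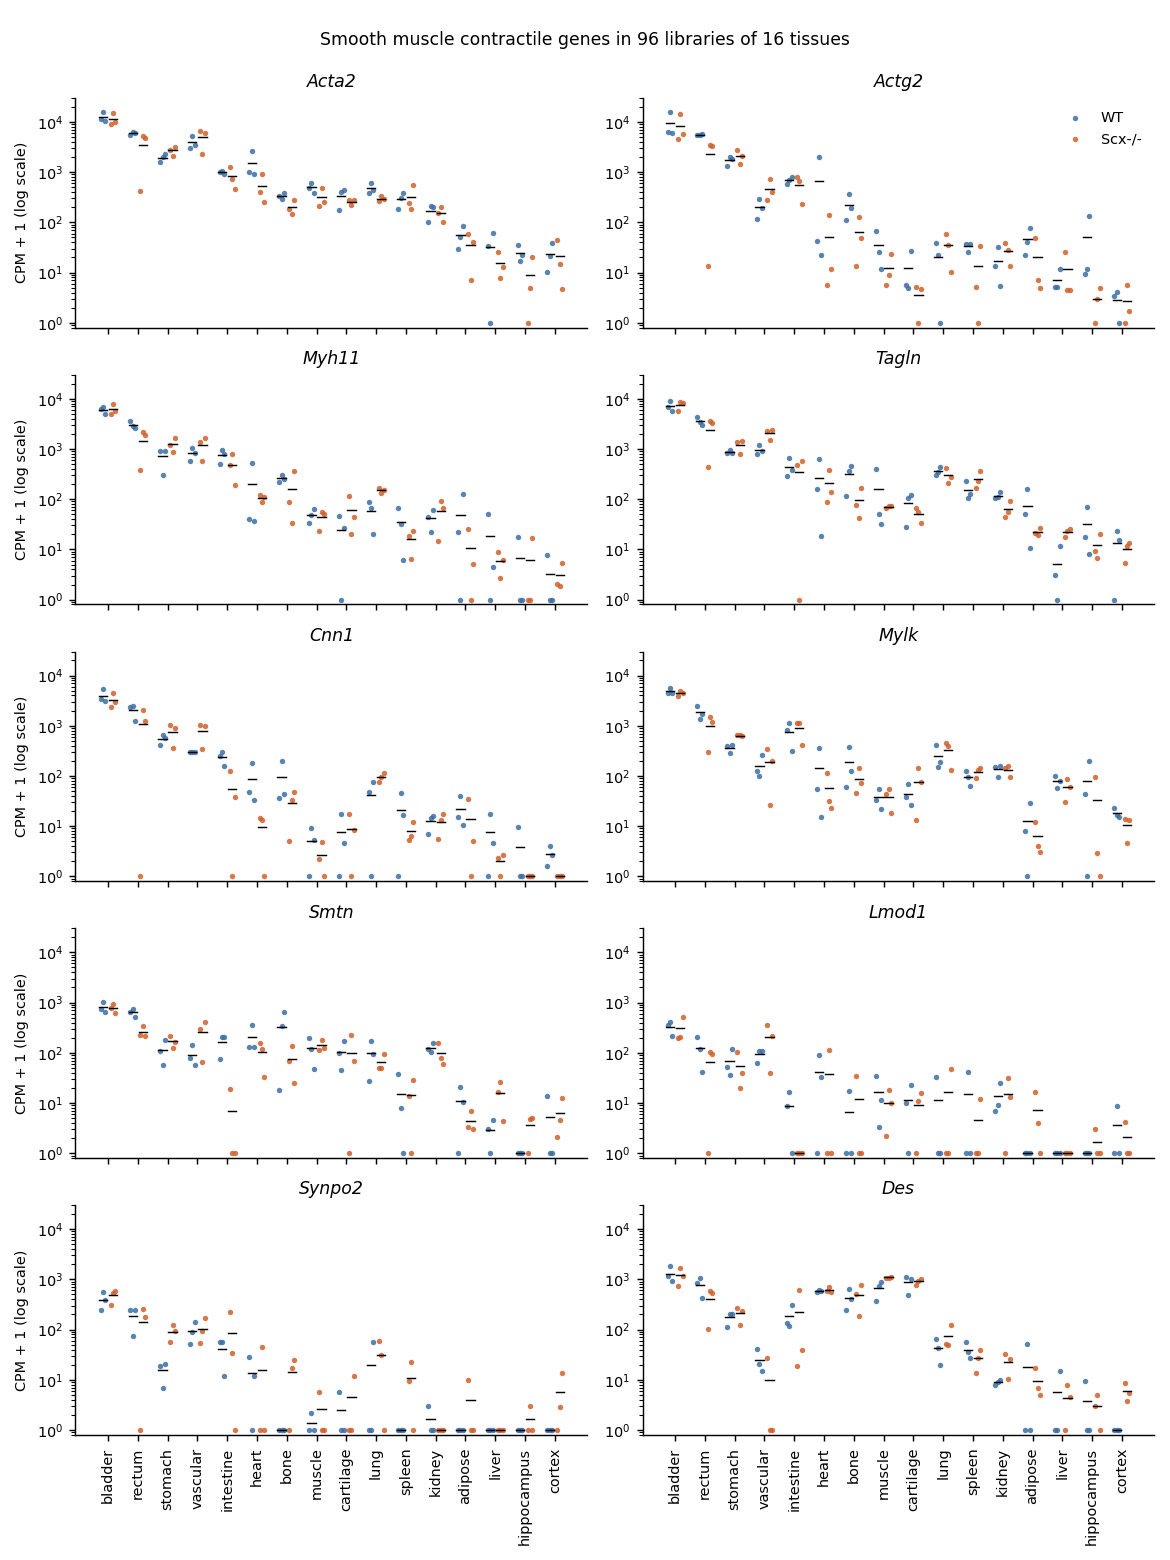
Each panel shows 1 gene, with CPM + 1 on a log axis by tissue and 1 point per library (WT and Scx-/-, bars for group means). In all 10 panels bladder has the highest mean over both genotypes (9 with TMM factors, without Des), and in the panel of Des the next highest means are in cartilage, muscle, and heart.

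Tissue pairs were compared in fits across all genes with genotype as a covariate (edgeR's quasi-likelihood test, Benjamini-Hochberg adjustment over all genes tested in each pair, log2 fold changes ± SE). These fits estimate the spread of a gene partly from all genes of the fit. A very small p therefore does not measure only that gene's own spread between its libraries. In bladder against stomach, all 10 contractile genes were higher in bladder at an adjusted p under 0.05, beside 4.5% of the 16859 genes tested that were called higher in bladder. With the replicate number as a block, fewer than 10 passed. The log2 fold changes ran from 1.91 to 3.13, with a median of 2.31, where the median over all genes tested was 0.16. Synpo2 (3.13 ± 0.34, adjusted p = 1.01e-17) and Mylk (2.96 ± 0.16, adjusted p = 6.82e-74) had the largest and Actg2 (1.91 ± 0.41, adjusted p = 0.0171) the smallest difference. With library totals in place of TMM factors, the median over all genes in this pair rose to 0.44, and 1138 genes were called higher and 673 lower in bladder, where TMM factors gave 758 and 872.

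Bladder against rectum compares the 2 tissues in which the 10 genes together made up the largest share of the counts, although rectum was not second for every gene. In this pair 7 of 10 genes were called, all higher in bladder, namely Des, Lmod1, Myh11, Mylk, Smtn, Synpo2, and Tagln, beside 1.86% of the 16852 genes tested called higher in bladder. The median log2 fold change of the 10 genes was 1.56 (all genes 0.37, or 0.14 with library totals, which called 249 genes higher and 548 lower in bladder where TMM factors gave 314 and 434). Mylk gave 1.97 ± 0.25 (adjusted p = 2.66e-12) and Myh11 1.75 ± 0.24 (adjusted p = 7.78e-11). Acta2 (1.62 ± 0.53, adjusted p = 0.162), Cnn1 (1.47 ± 0.83, adjusted p = 0.433), and Actg2 (1.52 ± 0.87, adjusted p = 0.436) did not pass. Without rectum Scx-/- replicate 1 all 10 passed, with Acta2 at 1.36 ± 0.16 (adjusted p = 1.58e-15), Cnn1 at 1.19 ± 0.21 (adjusted p = 5.54e-07), and Actg2 at 1.23 ± 0.27 (adjusted p = 0.00469). Without replicate 2 or replicate 3 of each group, 4 and 3 genes passed.

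Bladder against vascular compares the bladder with the tissue labelled vascular, whose libraries also held the brown fat markers given above and no more of the endothelial markers than heart, so that the values are not those of bladder against vessel muscle alone. In this pair 9 of 10 genes were called higher in bladder, beside 5.39% of the 15947 genes tested. The sizes were uneven. Des was 5.96 ± 0.39 (adjusted p = 1.19e-49), Actg2 4.94 ± 0.50 (adjusted p = 8.77e-05), and Mylk 4.67 ± 0.30 (adjusted p = 1.14e-20) higher on the log2 scale, while Acta2 was 1.44 ± 0.16 higher (adjusted p = 1.29e-17). Lmod1, at 1.18 ± 0.44, did not pass (adjusted p = 0.0761). The remaining 5 genes lay between 2.17 and 2.87. The median of the 10 genes was 2.51 and of all genes 0.89.

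**Figure D4:**
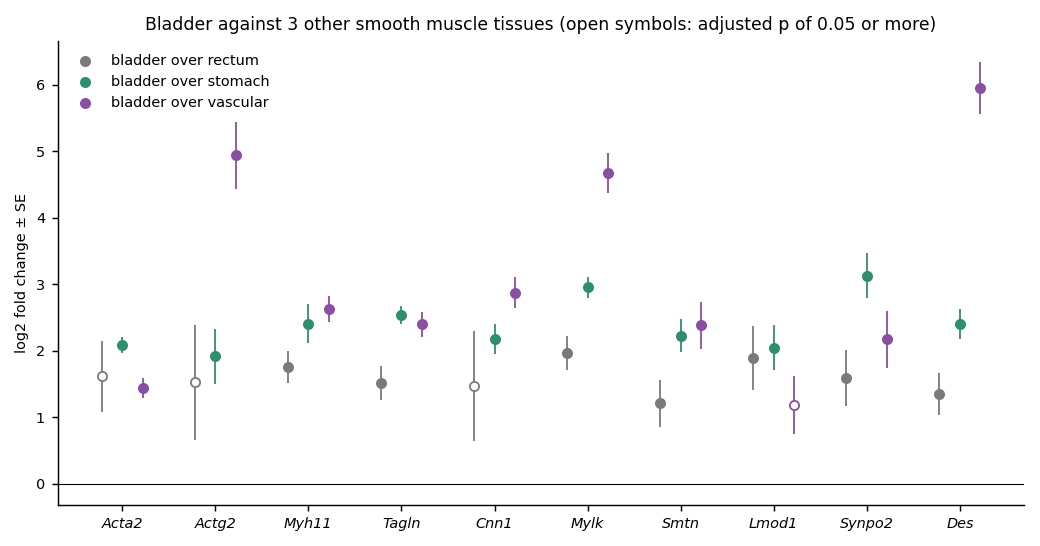
Log2 fold changes (vertical axis, error bars SE) of the 10 genes in bladder over rectum, over stomach, and over vascular libraries, from edgeR fits of 12 libraries each, with open symbols for an adjusted p of 0.05 or more. All 30 values lie above 0, and Des, Actg2, and Mylk reach 4.67 to 5.96 over vascular libraries.

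Along the gut, stomach exceeded intestine for 5 of 10 genes, beside 3.69% of the 15710 genes tested called higher in stomach, and these were Acta2 (2.01 ± 0.40, adjusted p = 2.79e-05), Actg2 (2.29 ± 0.42, adjusted p = 3.02e-06), Cnn1 (2.84 ± 0.57, adjusted p = 3.52e-05), Tagln (2.07 ± 0.47, adjusted p = 0.000449), and Lmod1 (3.98 ± 1.29, adjusted p = 0.0385), which had 0 counts in 4 of the 6 intestine libraries. Mylk (-0.11 ± 0.47, adjusted p = 0.907) and Synpo2 (-0.18 ± 0.94, adjusted p = 0.921) had the lowest values. Without intestine wild-type replicate 1, Lmod1 did not pass (adjusted p = 0.0505). With the replicate number as a block, 4 of the 10 genes passed in stomach over intestine. The median was 1.86, and 1.00 over all genes, which was 0.49 with library totals (334 genes called higher and 588 lower in stomach, where TMM factors gave 579 and 365). Rectum exceeded intestine for 6 of 10 genes, beside 1.37% of the 15482 genes tested called higher in rectum. Cnn1 (3.65 ± 0.63, adjusted p = 1.07e-06), Tagln (3.11 ± 0.52, adjusted p = 4.26e-07), Smtn (2.98 ± 0.85, adjusted p = 0.0209), Actg2 (2.68 ± 0.48, adjusted p = 4.73e-06), Acta2 (2.47 ± 0.46, adjusted p = 1.04e-05), and Myh11 (2.00 ± 0.51, adjusted p = 0.00591) passed. Without rectum Scx-/- replicate 1 and intestine wild-type replicate 1 these 6 passed as well, with Acta2 at 2.82 ± 0.42 (adjusted p = 5.72e-09), Cnn1 at 4.03 ± 0.60 (adjusted p = 5.80e-09), and Smtn at 2.90 ± 0.86 (adjusted p = 0.0371). With Scx-/- libraries only 3 genes passed, with the replicate block 4, and without 1 replicate of each group 4 to 5. The median of the 10 genes with all libraries was 2.58, and 0.80 over all genes. The Scx-/- intestine libraries were shallow, with 26500 to 54955 counts.

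In heart against muscle, the 2 striated muscle tissues, 0 of 10 genes passed by edgeR, beside 3.94% of the 15771 genes tested in either direction (263 higher and 359 lower in heart, or 576 and 282 with library totals). DESeq2 called 2, and 2 had an unadjusted edgeR p under 0.05. Actg2 gave 2.12 ± 0.75 (adjusted p = 0.0861) and Des -1.14 ± 0.45 (adjusted p = 0.153). In muscle, Des was 362, 744, and 886 CPM in wild-type and 1072, 1086, and 1119.7 CPM in Scx-/- libraries, and in heart it was 566, 623, and 579 CPM in wild-type and 589, 707, and 560.3 CPM in Scx-/- libraries. The tissues overlapped.

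Other genes of the contractile apparatus were grouped in 3 lists. Of 15 further genes of thin and thick filaments, dense bodies, and adhesions, 14 were called higher in bladder than in stomach (4.5% of all genes tested), 11 than in rectum (1.86%), and 10 than in vascular libraries (5.39%). The most abundant of them over 96 libraries were Tpm1 and Tpm2, tropomyosins that wind along actin, and Flna, filamin A, which links actin filaments. Flna was 1.74 ± 0.15 higher in bladder than in stomach (adjusted p = 1.91e-29), and Tpm2 2.01 ± 0.15 (adjusted p = 2.85e-40), whereas the mean of Tpm1 was highest in muscle (18313 CPM). One gene of this list went the other way, Itga8, an integrin subunit, which was lower in bladder than in vascular libraries by -5.53 ± 0.60 (adjusted p = 4.71e-18), beside 2.14% of all genes lower in bladder in that pair, and is named after its value was seen. Of 17 genes of signaling that sets the tone of smooth muscle, 6 were called higher in bladder than in stomach, 3 than in rectum, and 5 than in vascular libraries, with 0 lower, against the same shares of all genes. Ppp1r12a, the targeting subunit of myosin light chain phosphatase, was 3.00 ± 0.22 higher in bladder than in stomach (adjusted p = 4.10e-38). Pln, phospholamban, was highest in heart (7325 CPM), and Rhoa, a small GTPase, in lung (287 CPM).

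Of 9 transcriptional regulators, 3 were called higher and 1 lower in bladder than in stomach, 1 higher and 1 lower than in rectum, and 3 higher than in vascular libraries. Of all genes tested, 4.5% were called higher and 5.17% lower in bladder than in stomach. Against rectum these shares were 1.86% and 2.58%, and 5.39% were called higher in bladder than in vascular libraries. Srf, serum response factor, was 1.33 ± 0.40 higher in bladder than in stomach (adjusted p = 0.0127), but did not pass against rectum (0.69 ± 0.51, adjusted p = 0.505) or vascular libraries (1.63 ± 0.58, adjusted p = 0.0584). Myocd, myocardin, was higher in bladder than in stomach (2.36 ± 0.43, adjusted p = 1.72e-06), rectum (2.58 ± 0.61, adjusted p = 0.00122), and vascular libraries (1.61 ± 0.55, adjusted p = 0.0468). Klf4, a zinc finger factor of epithelia and vessels, was lower in bladder than in stomach (-2.58 ± 0.30, adjusted p = 4.25e-16) and rectum (-2.37 ± 0.44, adjusted p = 8.75e-06). Mef2c, the most abundant regulator of the list, was highest in cortex (791 CPM). In the comparison of genotypes, 0 genes of these 3 lists were called in any of the 16 tissues by edgeR, while 0 to 2 genes of each list had an unadjusted p under 0.05 in a tissue, beside 4.01% of all tests over genes and tissues.

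How alike the contractile genes were is described by correlations of log2(CPM + 1), with no test, since the values share libraries, depth, and tissue. Over the 96 libraries, Pearson's r between pairs of the 10 genes had a median of 0.71 over 45 pairs, from 0.349 for Des and Synpo2 to 0.887 for Acta2 and Myh11. The 9 pairs with Des had a median of 0.477 and the 36 others 0.718. Over the means of the 16 tissues the median was 0.853, and over deviations from the mean of each tissue and genotype it was 0.180. Among 10966 genes with a mean of at least 10 CPM, those most like Myh11 were Myl9 (r = 0.798), Flna (0.793), Col3a1 (0.751), Tmem45b (0.727), and Anxa2 (0.723), over 96 libraries. Those most like Des were Tpm1 (r = 0.856), Tpm2 (0.759), Jph2 (0.754), Flnc (0.748), and Col3a1 (0.744).

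Loss of Scx was compared within each tissue, 3 against 3 libraries, where an exact permutation test cannot go below 0.1 and the model across all genes was used. By edgeR, 0 of 158 tests of a contractile gene in a tissue reached an adjusted p under 0.05, beside 0.0914% of all tests over genes and tissues (2 genes had no counts in liver). An unadjusted p under 0.05 was found in 10 of the 158, beside 4.01% of all tests. DESeq2 called 0 and gave 8 at an unadjusted p under 0.05. The lowest adjusted p by edgeR was 0.470. With 3 libraries a group, a p that misses the threshold does not show that the levels were alike. The 3 libraries of each genotype did not overlap in 22 of 160 combinations of gene and tissue, beside 7.96% of all combinations tested. Of the 22, 9 were higher and 13 lower in Scx-/- libraries. The genes of a tissue share its libraries, so that these are not separate results.

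In bladder, where the genes were highest and best counted, 0 of 10 genes were without overlap between genotypes (all genes 8.74%), and the log2 fold changes of Scx-/- over wild-type ran from -0.36 to 0.20 with SE of 0.16 to 0.72. Cnn1 gave -0.36 ± 0.20 (adjusted p = 0.804), Mylk -0.19 ± 0.19 (adjusted p = 0.840), and Tagln -0.01 ± 0.18 (adjusted p = 0.993). Of 5 fibroblast markers listed, 2 were called lower in Scx-/- bladder, the collagen genes Col1a1 (-0.96 ± 0.17, adjusted p = 0.000146) and Col3a1 (-1.05 ± 0.18, adjusted p = 7.86e-05), and the other 3 did not pass. The 5 together summed to 23596 to 33432 CPM in wild-type and 14307 to 17423 CPM in Scx-/- libraries. Urothelial markers were at 4987 to 8029 CPM in wild-type and 8177 to 9749 CPM in Scx-/- bladder.

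In rectum, all 10 fold changes were below 0, with a median of -0.74 where the median over all genes was 0.45. The 10 genes were measured in the same 6 libraries, so that they are not 10 separate results. Smtn was 658, 746, and 522 CPM in wild-type and 229, 342, and 219.7 CPM in Scx-/- rectum, without overlap (-1.15 ± 0.67, adjusted p = 0.706). Myh11 was 3541, 2898, and 2552 CPM in wild-type and 381, 2141, and 1869 CPM in Scx-/- rectum, also without overlap (-0.85 ± 0.45, adjusted p = 0.706). Acta2 and Actg2 did not overlap either, so that 4 of 10 genes were without overlap, beside 8.11% of the genes tested in rectum. Rectum Scx-/- replicate 1 carried the lowest value of 9 of the 10 genes, and Cnn1, Lmod1, and Synpo2 had 0 counts in it, which allows up to 38.1 CPM. Without that library Smtn gave -0.98 ± 0.60 (adjusted p = 0.877), Myh11 -0.38 ± 0.32 (adjusted p = 0.877), Tagln 0.11 ± 0.29 (adjusted p = 0.971), and Synpo2 0.44 ± 0.89 (adjusted p = 0.952). Acta2 was then at -0.04 ± 0.25, the median of the 10 genes was -0.25, and 2 of the 10 lay above 0. With wild-type replicate 1 left out instead, Lmod1 turned to 0.0266 and Synpo2 to 0.336. Squamous epithelium markers summed to 4.60 to 20.1 CPM in wild-type and 4614 to 5539 CPM in Scx-/- rectum, and skeletal muscle markers to 216 to 4269 CPM in wild-type and 6873 to 10287 CPM in Scx-/- rectum. All 6 squamous genes listed were called higher in Scx-/- rectum, among them Lor, loricrin (7.28 ± 0.81, adjusted p = 8.11e-16), and Krt13, a keratin (9.85 ± 1.30, adjusted p = 5.43e-11). Gut epithelium markers summed to 12052 to 16377 CPM in wild-type and 2007 to 10868 CPM in Scx-/- rectum, without overlap. The part of these marker genes in the levels of the contractile genes was not tested.

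In stomach, 9 of 10 fold changes were above 0, with a median of 0.49 (all genes 0.14). Mylk was 402, 290.2, and 409 CPM in wild-type and 649, 643, and 617 CPM in Scx-/- stomach, without overlap (0.79 ± 0.30, unadjusted p = 0.00952 by edgeR's quasi-likelihood test, adjusted p = 0.797). Synpo2 was 18.2, 5.98, and 19.8 CPM in wild-type and 55.7, 121, and 94.1 CPM in Scx-/- stomach, also without overlap (2.56 ± 0.95, adjusted p = 0.797). These were the 2 genes of 10 without overlap in stomach, beside 7.91% of all genes there. Myh11 had the lowest p of the 10 genes, at 0.79 ± 0.25 (unadjusted p = 0.00134 by edgeR, adjusted p = 0.470), although 1 Scx-/- library, at 861 CPM, lay below 2 of the wild-type libraries at 917 and 921 CPM. An unadjusted p under 0.05 was found for 5 of the 10 genes, beside 3.69% of the genes tested in stomach, and the 10 genes were measured in the same 6 libraries. Gastric mucosa markers summed to 145632 to 196115 CPM in wild-type and 121385 to 150743 CPM in Scx-/- stomach. Squamous markers summed to 1137 to 2756 CPM in wild-type and 2613 to 3987 CPM in Scx-/- stomach. Pancreatic acinar markers summed to 194 to 551 CPM in wild-type and 533 to 15419 CPM in Scx-/- stomach, and 2 of the 6 listed were called higher in Scx-/- stomach, Amy2b, an amylase (5.82 ± 1.05, adjusted p = 0.000289), and Pnlip, a lipase (4.07 ± 0.74, adjusted p = 0.0393). Gkn1, a gastric mucosa gene, was lower in Scx-/- stomach (-0.38 ± 0.09, adjusted p = 0.0247). The part of these in the values of the contractile genes was not tested.

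In vascular libraries, the median of the 10 fold changes was 0.50, where the median over all genes was -0.51. Tagln was 775, 1184, and 907 CPM in wild-type and 2253, 1504, and 2414 CPM in Scx-/- libraries, without overlap (0.76 ± 0.36, adjusted p = 0.672). Cnn1 was 304, 304, and 298 CPM in wild-type and 1015, 350.0, and 1006 CPM in Scx-/- libraries, again without overlap (1.03 ± 0.51, adjusted p = 0.672). Replicate 2 of Scx-/- was the lowest of its group in both. The same library was the lowest of all 6 for Acta2, at 2334 CPM, and the highest for Actg2, at 726 CPM. Acta2 overlapped, with 3002, 5329, and 3462 CPM in wild-type and 6549, 2334, and 6003 CPM in Scx-/- libraries (0.02 ± 0.27, adjusted p = 0.988). Brown fat markers summed to 7086 to 13148 CPM in wild-type and 3499 to 6143 CPM in Scx-/- vascular libraries, and cardiomyocyte markers reached 1867 CPM in Scx-/- replicate 3 against 8.46 to 114 CPM in the other 5. Ucp1, a brown fat gene, was lower in Scx-/- vascular libraries (-2.03 ± 0.29, adjusted p = 1.71e-08). Their part in the levels was not tested.

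**Figure D5:**
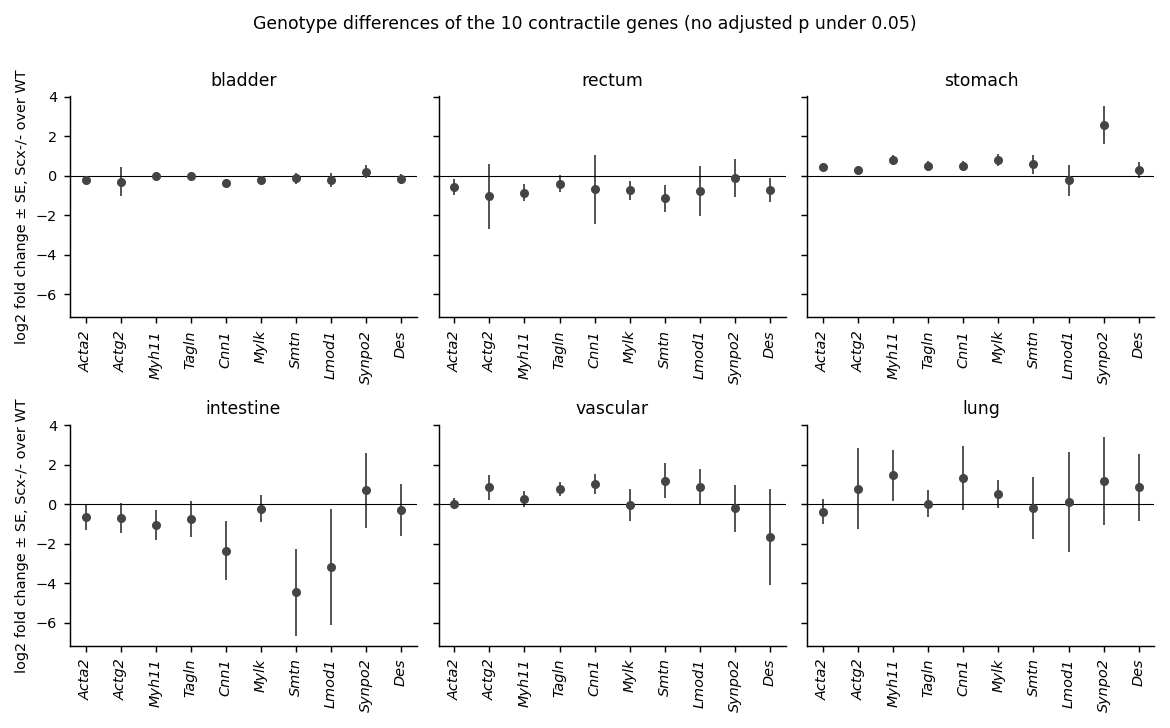
Log2 fold changes of Scx-/- over wild-type libraries (vertical axis, error bars SE, edgeR, 3 against 3 libraries) for the 10 genes in 6 tissues. Values in bladder lie between -0.36 and 0.20, all 10 lie below 0 in rectum (8 without Scx-/- replicate 1), 9 of 10 lie above 0 in stomach, and none has an adjusted p under 0.05.

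Of the other tissues with an unadjusted p under 0.05, intestine rested on few counts and heart on 1 library. Smtn in intestine was 75.0, 204, and 202 CPM in wild-type and 18.2, 0, and 0 CPM in Scx-/- libraries (-4.46 ± 2.20, adjusted p = 0.652), where the shallowest of them allows up to 113 CPM at 0 counts, and it was -4.68 (adjusted p = 0.771) without wild-type replicate 1. Actg2 in heart gave -2.38 ± 1.02 (adjusted p = 0.738), which turned to 0.39 without wild-type replicate 2. Des in muscle gave 0.93 ± 0.46 (adjusted p = 0.771) with no overlap between genotypes, from 420 to 970 counts in 5 libraries and 11 counts in wild-type replicate 1, without which it was 0.56. In muscle, Ucp1 was lower in Scx-/- libraries (-8.97 ± 1.52, adjusted p = 2.41e-05), while brown fat markers together summed to 559 to 1422 CPM in wild-type and 945 to 1176 CPM in Scx-/- libraries, and their part in the Des levels was not tested. In lung, Myh11 was 87.7, 64.2, and 18.8 CPM in wild-type and 165, 132, and 149 CPM in Scx-/- libraries, without overlap (1.45 ± 1.27, adjusted p = 0.741), while Acta2 was 389, 599, and 432 CPM in wild-type and 264, 329.7, and 289 CPM in Scx-/- libraries (-0.38 ± 0.64, adjusted p = 0.923).

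Whether the difference between genotypes itself differed between tissues was tested as an interaction in 6 tissue pairs. By edgeR, 0 of 60 tests passed an adjusted p under 0.05 (lowest 0.324), beside 0.0455% of all tests, and 13 had an unadjusted p under 0.05, beside 6.39% of all tests. Of these, 6 were in bladder against stomach, beside 5.14% of the genes tested there. All 10 differences in this pair were below 0 (bladder minus stomach), with a median of -0.71, and the median over all genes was -0.32. The 10 genes were measured in the same libraries. Synpo2 gave -2.37 ± 0.65 (adjusted p = 0.324), Mylk -0.99 ± 0.29 (adjusted p = 0.409), and Acta2 -0.71 ± 0.22 (adjusted p = 0.539).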

How the data were processed

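Bulk RNA of 16 tissues was profiled in 96 libraries. The deposited values are raw counts per gene symbol. The authors aligned reads to the mm10 genome (Bowtie2, default settings) and counted them per gene (HTSeq). No source used here gives versions, annotation, strand setting, or use of molecular identifiers. Bowtie2 does not align across splice junctions, so that reads over junctions are lost, and genes with near-identical copies, such as the actins, are uncertain.

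Groups came from the sample labels. Levels are CPM on library totals, without a correction for length, and MuSeq reads are enriched at 3′ ends. Tests used edgeR 4.0.16 in R 4.3.3 (TMM factors, glmQLFit with robust estimation, genes with 0 counts removed, Benjamini-Hochberg adjustment per comparison), with DESeq2 1.42.0, the study's tool, as an alternative. SE is the log2 fold change divided by the root of the F statistic. Neighbouring tissues were compared by exact permutation (scipy 1.17.1). The fits were tested on simulated data. The 10 genes and all lists were chosen with earlier results of these data known. Named by rule were the 10 genes, the 3 most abundant genes of each pathway list, genes of those lists called between genotypes (0 in the tissues looked at), and the 5 genes most correlated with Myh11 and with Des; 2 genes of each marker list were named only beside a result. Promoters came from RefSeq (GRCm38.p6) and gene positions from a GRCm38 annotation.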

Additional observations from a re-analysis of the deposited data

Results flagged for a closer look

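In 7 cases every Scx-/- library of one tissue lay above every wild-type library while the opposite held in another tissue, for a pair of tissues whose difference was not tested. The difference of the log2 fold changes (edgeR, Scx-/- over wild-type, first tissue minus second) was 2.30 for Myh11 in lung and rectum, 3.46 for Tagln in liver and kidney, 1.78 for Tagln in vascular and kidney, 4.97 for Cnn1 in vascular and cortex, 3.58 for Cnn1 in vascular and heart, 3.38 for Cnn1 in vascular and intestine, and 1.60 for Mylk in stomach and cortex. None of the single differences passed an adjusted p under 0.05. Cnn1 was at 0 in all 3 Scx-/- cortex libraries, with a wild-type mean of 1.78 CPM, so that its value there depends on the prior count of the fit. With 160 combinations of gene and tissue compared, 22 were without overlap, beside 7.96% over all genes.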

How the results depend on the processing

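The count of contractile genes called between genotypes was 0 under every alternative run (other scalings, a filter on low counts, DESeq2, a fit over all 32 groups, and each library left out), and the count of interactions called was 0 throughout. With the replicate number as a block, 0 genes were called between genotypes, and 9, 8, 4, 4, 9, and 0 in the tissue pairs (bladder over stomach, bladder over rectum, stomach over intestine, rectum over intestine, bladder over vascular, heart over muscle). The labels do not say what the numbers mark. Within a tissue, 0 of 48 pairs of same-numbered wild-type and Scx-/- libraries correlated above 0.1 in their deviations from the group means (-0.139 to 0.031). Of 36 same-numbered pairs of 1 genotype across the 6 tissue pairs, 0 did so (-0.0405 to 0.0611), but 26 correlated best with their own number of the 3. These included every such pair of bladder with stomach and of bladder with rectum. This is a hint from the data only that same-numbered libraries go together, and the main fits do not pair them. Bladder over rectum called 4 genes with Scx-/- libraries only and 3 to 9 without 1 replicate, and rectum over intestine 3 with Scx-/- libraries only. Heart over muscle called 1 gene with RLE size factors, with library totals, and with Scx-/- libraries only, 2 with DESeq2, and 0 to 1 without 1 replicate. Without 1 replicate, 0 neighbouring pairs of tissues passed, where 4 against 4 libraries cannot give a p below 0.0286. With TMM factors over 96 libraries, the share of the 10 genes was 0.0389% in adipose, 0.257% in intestine, 0.0234% in liver, 0.105% in lung, and 0.263% in muscle. The number of genes highest in bladder was 9 with TMM factors and 10 under the other alternatives run for the order. Without the 3 doubted libraries, an alternative added after the data were seen, 18 neighbouring pairs passed where 13 did with all libraries.

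Values that did not pass and changed sign were, on the log2 scale, in stomach over intestine, Des at -0.0517 with library totals, Mylk at 0.0970 with the replicate block, 0.453 with Scx-/- libraries only, 0.141 without replicate 1 and 0.201 without replicate 2 (lowest -0.50 without replicate 3), and 0.0465 without intestine wild-type replicate 1, and Synpo2 at 0.258 with the block, 0.794 with Scx-/- libraries only, 1.13 without replicate 1 (lowest -0.788 without replicate 3), and 0.152 without that intestine library. For Scx-/- over wild-type, Actg2 in heart turned to 0.385 without wild-type replicate 2 (range without 1 library -4.97 to 0.385). In rectum, Lmod1 turned to 0.0266 without wild-type replicate 1 (range -1.16 to 0.0266), Synpo2 to 0.336 without it and to 0.436 without Scx-/- replicate 1 (range -0.733 to 0.436), and Tagln to 0.111 without the latter (range -0.765 to 0.111). The causes were not tested. Lmod1 and Synpo2 were not detected in 42 and 49 of the 96 libraries, and how much of this comes from depth and how much from tissue was not tested.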
